A study of Homo sapiens with 4 samples.

Results

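The RNA interference machinery was followed through 10 genes of the small-RNA pathway. They are the Argonautes AGO1, AGO2, AGO3 and AGO4, the ribonucleases DROSHA and DICER1, the DROSHA partner DGCR8, the exporter XPO5, and the DICER1 partners TARBP2 and PRKRA. The members are all probe sets that the array platform's annotation gives to one of these symbols and to no other gene. There were 27 such probe sets among 54613 on the array, and they covered 9 of the 10 genes, out of 19775 genes named by such probe sets. All DGCR8 probe sets are annotated to a second gene as well. Of the 27 probe sets, 19 passed the filter on dim signals, and these again represented 9 genes.

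KM-H2 is an established human Hodgkin lymphoma cell line, and its RNA was measured on single-colour arrays. Knockdown cells (2 arrays) had been transduced with a lentiviral vector, pGIPZ-sh.FLJ27352, whose small hairpin RNA is aimed at the BX648577 part of the CIITA-BX648577 fusion transcript. Control cells (2 arrays) carried a non-silencing control. The labels describe cells of both groups as transduced, so the comparison sets a targeting construct against a non-silencing one. Untransduced cells were not analysed here, and 1 hairpin in 1 cell line was used.

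In the nucleus DROSHA and DGCR8 form the microprocessor, which cuts hairpins out of long primary transcripts. XPO5, exportin-5, carries the cut hairpin to the cytoplasm, where DICER1 removes its loop with the help of the double-stranded RNA binding proteins TARBP2 and PRKRA. An Argonaute then keeps a single strand of the duplex as its guide and silences transcripts that pair with it. AGO2 is the Argonaute best known for cutting a fully paired target, and a hairpin vector built on a microRNA backbone passes through all of these steps.

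The hairpin insert given in the labels has 97 bases, and the longest perfect stem found in it has 23 base pairs closed by a loop of 15 bases. That loop, in capitals below, occurs letter for letter in 1 of 1562 human microRNA hairpins of the RefSeq table (GRCh38.p14). The match is MIR30A, at chr6:71403551-71403621 on the minus strand, and the pair is shown because microRNA hairpins are the natural substrates of DROSHA and DICER1.
delivered stem and loop: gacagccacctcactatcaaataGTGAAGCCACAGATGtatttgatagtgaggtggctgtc
MIR30A: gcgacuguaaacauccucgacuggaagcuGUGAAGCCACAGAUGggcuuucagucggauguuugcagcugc
The cut sites of the delivered hairpin in these cells are not known here.

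Mean intensity per array ranged from 53.3 to 54.6 units, and the log2 values of any 2 arrays correlated at r = 0.979 to 0.987 over all probe sets, which are not independent replicates. As a check of the hairpin, PIERCE2, the current name of FLJ27352 from general knowledge, read 621 and 590 in knockdown cells, against 880 and 947 in control cells. This difference of -0.58 on the log2 scale had a limma adjusted p of 0.273 with a common prior variance, which is not a call, and of 0.000141 with the intensity trend, which is. CIITA, the other partner of the fusion, was not called, with differences of -0.10 at 205101_at (60.6 and 53.6 in knockdown, against 59.6 and 65.1 in control) and 0.03 at the dimmer 210925_at. The summed level of 7 Hodgkin cell markers, TNFRSF8 (CD30) among them, was 1127 to 1151 in knockdown and 1184 to 1217 in control cells. The lower sum came from FSCN1 (fascin) at 201564_s_at, which read 507 and 500 in knockdown, against 644 and 618 in control. This difference of -0.32 had a limma adjusted p of 0.311, and of 0.0170 with the trend. The dimmer FSCN1 probe set 210933_s_at went the other way, without a call (0.35). It read 38.1 and 40.4 in knockdown, against 34.1 and 21.8 in control. TNFRSF8 at 206729_at read 134 and 115 in knockdown, against 110 and 115 in control. FUT4 at 209893_s_at lay 0.39 and IL2RA at 206341_at 0.41 above control on the log2 scale. Their other probe sets, 209892_at and 211269_s_at, lay 0.10 and 0.17 above control. TNFRSF8, FUT4 and IL2RA were not called in either fit. The summed level of 5 T and NK cell markers, nearly all of it CD3D, was 238 to 279 in knockdown and 200 to 212 in control cells, and CD3E, CD8A, NKG7 and GNLY were below the filter. Mature B cell markers (3 measured) summed to at most 42.6 in knockdown and 51.0 in control cells, and myeloid markers (4) to at most 116 in knockdown and 120 in control cells. Epithelial and fibroblast markers (5) summed to 98.3 to 108 in knockdown and 126 to 143 in control cells. That lower sum came from the collagens COL1A2 at 202403_s_at (-0.47) and COL1A1 at 1556499_s_at (-0.24), not called in either fit. COL1A2 202403_s_at read 37.3 and 32.9 in knockdown, against 56.4 and 53.3 in control. Their dimmer tested probe sets ran from -0.39 to 0.06, without a call. KRT8 overlapped between groups, and EPCAM and KRT18 were below the filter. The part of these lists in the results was not tested. In bulk RNA, fewer cells expressing a gene and less RNA per cell cannot be told apart.

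None of the 9 measured genes was called different between knockdown and control cells. In limma's common-prior fit, which gives all probe sets 1 prior variance, 0 of the 19 tested member probe sets passed an adjusted p of 0.05, and the lowest adjusted p among them was 0.285. Over all 27307 tested probe sets the same rule called 2, a share of 0.00732%. In the intensity-trend fit, where the prior variance follows the mean level, 0 of 19 passed again (lowest adjusted p = 0.170), against 2.16% of all tested probe sets. At an unadjusted p below 0.05 there were 2 of 19 in each fit, while 13.3% of all tested probe sets reached it in the common-prior fit and 16.1% in the intensity-trend fit. A share near the background is no result about these genes, and 2 arrays per group limit what could be called.

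The differences were uncalled, and they were small on the scale used, whose offset of 16 shrinks those of dim probe sets. With an offset of 1 in its place, AGO4 227930_at was at -0.64 and AGO3 235782_at at -0.55. On the log2(intensity + 16) scale, knockdown minus control ran over the 19 probe sets from -0.39 to 0.31, with 8 above 0, 11 below and a median of -0.03, which was 0.026 when each array was centred on its median. The median over all tested probe sets was 0.00. In absolute size the members' median difference was 0.11, and that of all tested probe sets was 0.13. With the offset of 16, all 19 of the 95% intervals lay inside a change of 1 in either direction, and 13 of them inside 0.5. Each interval covers its own probe set alone. Knockdown and control arrays did not overlap at 6 of the 19 probe sets, 3 higher and 3 lower in knockdown, which is 31.6% beside 46.1% of all tested probe sets. With 2 arrays against 2, an exact two-sided permutation test cannot go below p = 0.333, so for single probe sets only the fit across the whole table can call.

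**Figure D1:**
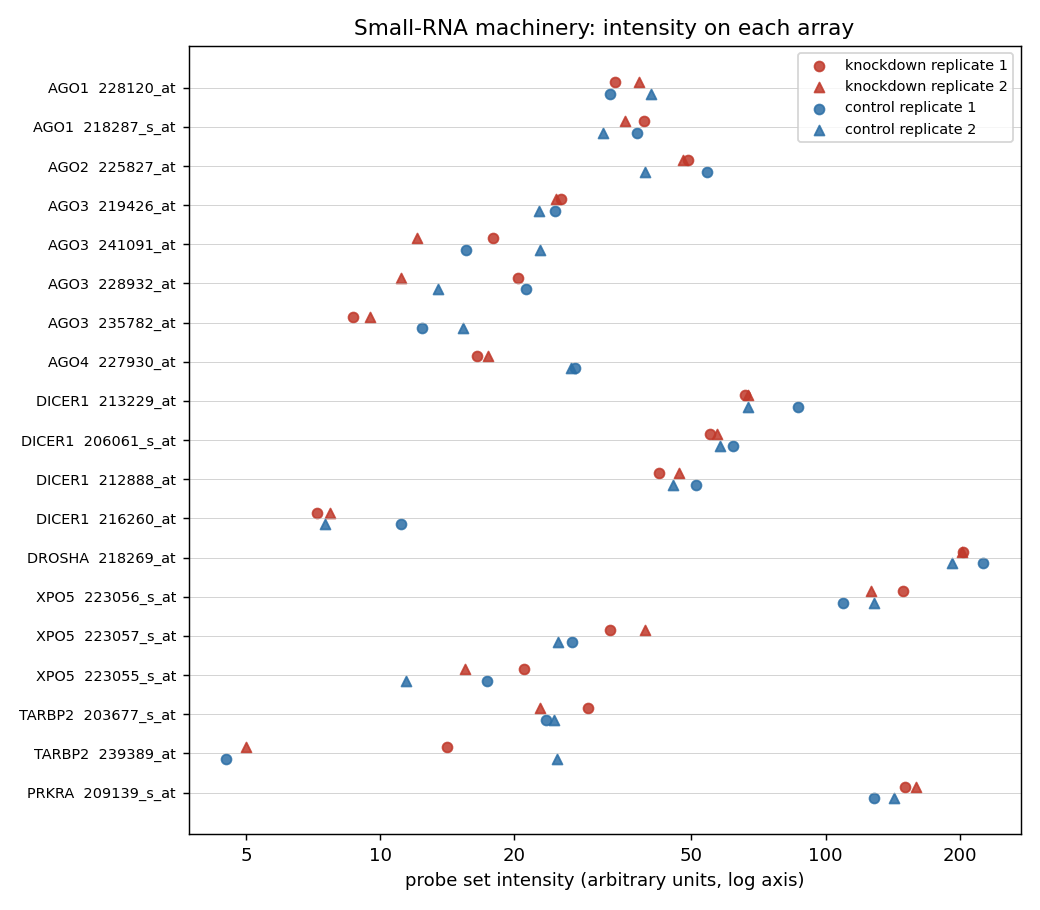
Intensity of the 19 tested member probe sets on a log axis, with a red circle and triangle for knockdown replicates 1 and 2 and a blue circle and triangle for control replicates 1 and 2. At AGO4 227930_at both knockdown arrays lie below both control arrays, with 16.5 and 17.4 in knockdown, against 27.4 and 26.8 in control, whereas DROSHA overlaps between 192 and 225. Intensities of different probe sets are not comparable with each other.

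Among the Argonautes, the guide-holding proteins of the silencing complex, AGO4 had the member probe set with the largest difference of the 19. AGO4 probe set 227930_at read 16.5 and 17.4 in knockdown cells, against 27.4 and 26.8 in control cells. The groups were well apart and the replicates of each group close together. The means were 17.0 ± 0.636 in knockdown and 27.1 ± 0.445 in control (SD, n = 2 each), so knockdown stood at 62.7% of control. The log2 difference was -0.39 (SE 0.11, 95% interval -0.63 to -0.14), with an unadjusted p of 0.00783 and a limma adjusted p of 0.285, which is not a call. The other AGO4 probe sets were dim, with knockdown means from 1.92 to 3.86 and control means from 1.23 to 3.49, and were not tested. Of these, 219190_s_at lay lower in knockdown (2.58 and 2.84, against 3.62 and 3.36 in control). Probe set 1569408_at (3.84 and 3.87 in knockdown, against 2.54 and 1.65 in control) and 222842_at (1.54 and 2.29 in knockdown, against 1.36 and 1.09 in control) lay higher. These intensities lie near the bottom of the scale, and nothing is drawn from their order.

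AGO1 read close to level in both groups. Its probe set 228120_at gave 33.7 and 38.2 in knockdown cells, against 32.8 and 40.6 in control cells. Probe set 218287_s_at gave 39.2 and 35.5 in knockdown, against 37.8 and 31.6 in control. The groups overlapped at both, with log2 differences of -0.02 (95% interval -0.31 to 0.27) and 0.08 (-0.20 to 0.35). Its probe sets 239036_at and 222576_s_at were too dim for the test, with means of 7.53 and 6.45 in knockdown and 8.29 and 8.04 in control.

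AGO3 was seen by 4 tested probe sets that did not agree on a direction. The brightest, 219426_at, read 25.5 and 24.9 in knockdown, against 24.7 and 22.7 in control, a difference of 0.05 (95% interval -0.20 to 0.31) with the groups barely apart. The dimmest, 235782_at, read 8.68 and 9.50 in knockdown, against 12.4 and 15.4 in control, a difference of -0.25 (-0.51 to 0.01) with the knockdown arrays lower. Groups overlapped at the remaining pair. Of that pair, 241091_at gave 17.9 and 12.1 in knockdown, against 15.6 and 22.9 in control (-0.18), and 228932_at gave 20.4 and 11.1 in knockdown, against 21.2 and 13.5 in control (-0.07). In the RefSeq annotation AGO4, AGO1 and AGO3 follow each other on chromosome 1 with no other protein-coding gene between them. No common direction was seen over the 7 tested probe sets of these neighbours, of which 2 lay above 0 and 5 below.

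AGO2, the cutting Argonaute, had 1 single-gene probe set, and it was level. At 225827_at the intensities were 49.1 and 47.9 in knockdown cells, against 54.3 and 39.3 in control cells. Both knockdown values lay between the controls, and the difference was 0.05 (SE 0.14, 95% interval -0.28 to 0.38, adjusted p = 0.909). A further 3 probe sets are annotated to CASC7 and AGO2 together, and CASC7 is listed as a synonym of AGO2 in the RefSeq table. They are not counted as members. Of these, 225569_at read 47.9 and 45.2 in knockdown, against 63.2 and 71.4 in control (-0.41, 95% interval -0.68 to -0.15, limma adjusted p = 0.285, and 0.0739 in the intensity-trend fit). Probe set 213310_at read 32.7 and 31.4 in knockdown, against 41.3 and 41.9 in control (-0.26, -0.51 to -0.01, adjusted p = 0.357). At both of them the knockdown arrays were the lower ones, without a call, which differs from the overlap at 225827_at. The third, 1561042_at, was dim, with means of 4.26 in knockdown and 4.75 in control. Which transcripts each of these probe sets reads was not derived here, so the level of AGO2 RNA in knockdown cells is uncertain.

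**Figure D2:**
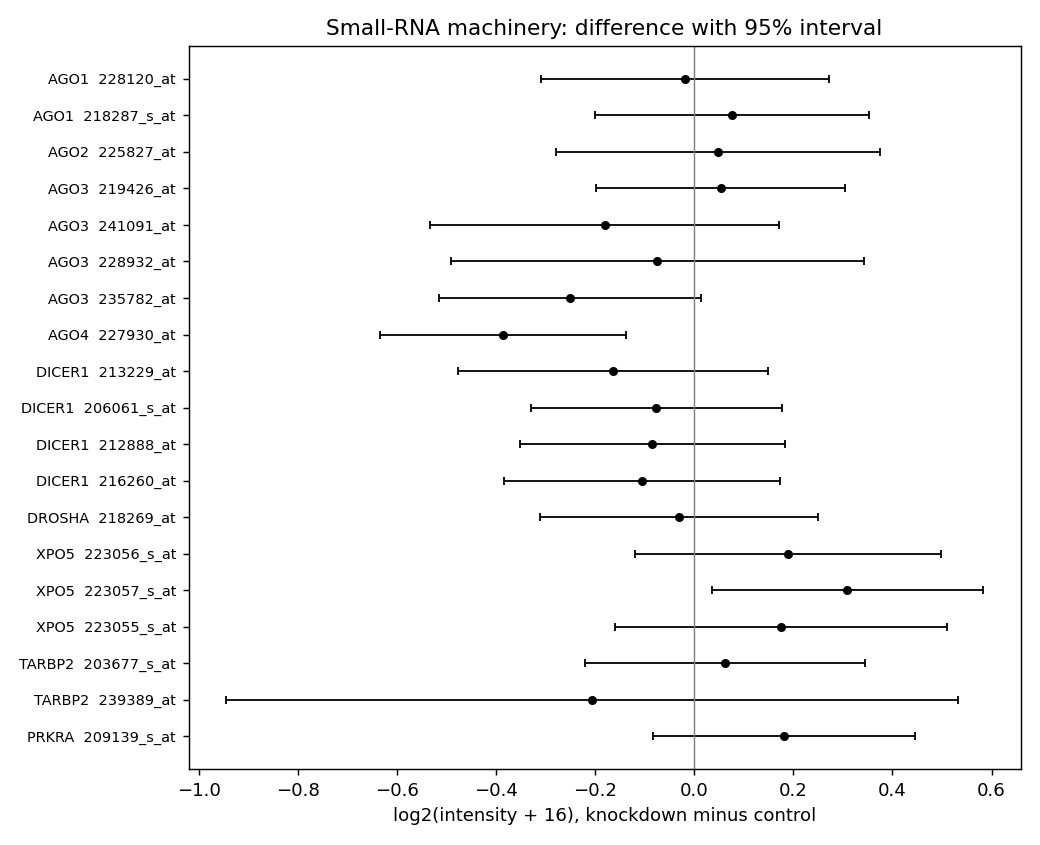
Difference between knockdown and control on the log2(intensity + 16) scale for the 19 tested member probe sets, as points with 95% intervals from limma's common-prior fit. The intervals of AGO4 227930_at (-0.63 to -0.14) and XPO5 223057_s_at (0.04 to 0.58) leave out 0, the other 17 hold it, and none passed adjustment over all tested probe sets.

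The nuclear step showed no called difference at the probe sets available. DROSHA, the ribonuclease of the microprocessor, read 204 and 203 in knockdown cells, against 225 and 192 in control cells at its only probe set, 218269_at. The knockdown values lay between the control values. The means were 203 ± 0.757 in knockdown and 209 ± 23.6 in control (SD, n = 2 each), a log2 difference of -0.03 (SE 0.12, 95% interval -0.31 to 0.25, adjusted p = 0.935).

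DGCR8, the RNA-binding partner of DROSHA, has no single-gene probe set, since 4 probe sets are annotated to it together with the microRNA gene MIR1306. The 2 mature forms of that microRNA lie inside the DGCR8 gene in RefSeq (GRCh38.p14), as does hsa-miR-3618. Hairpins in the DGCR8 transcript are a known target of the microprocessor itself, which is why they are shown, with the seed (bases 2 to 8) in capitals.
hsa-miR-1306-5p: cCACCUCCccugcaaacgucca
hsa-miR-1306-3p: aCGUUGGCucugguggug
hsa-miR-3618: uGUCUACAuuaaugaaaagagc
They lie at chr22:20086072-20086093, chr22:20086112-20086129 and chr22:20085797-20085818, all on the plus strand, and no 2 of them share a seed. The brightest of the 4 shared probe sets, 64474_g_at, read 49.1 and 36.4 in knockdown, against 53.1 and 44.4 in control, with overlapping groups (-0.15, 95% interval -0.48 to 0.19). At 218650_at, 219811_at and 91617_at the groups overlapped as well, with differences of -0.04, -0.01 and -0.05. No tested probe set annotated to DGCR8 and MIR1306 passed either fit.

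XPO5, which exports the cut hairpin from the nucleus, lay above 0 at all 3 of its tested probe sets, without a call. Probe set 223057_s_at read 32.9 and 39.3 in knockdown cells, against 26.9 and 25.1 in control cells. There the knockdown arrays were both higher, with means of 36.1 ± 4.56 in knockdown and 26.0 ± 1.29 in control (SD, n = 2 each). The difference was 0.31 (SE 0.12, 95% interval 0.04 to 0.58), with an unadjusted p of 0.0320 and a limma adjusted p of 0.337. The brightest XPO5 probe set, 223056_s_at, read 149 and 126 in knockdown, against 109 and 128 in control, and 223055_s_at read 21.1 and 15.5 in knockdown, against 17.3 and 11.5 in control. Groups overlapped at both, with differences of 0.19 (-0.12 to 0.50) and 0.18 (-0.16 to 0.51). With single arrays left out these stayed above 0 but were as low as 0.082 at 223056_s_at (without knockdown replicate 1) and 0.035 at 223055_s_at (without control replicate 2). The 3 probe sets share a gene and the same arrays, so they are not independent of each other.

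DICER1, the ribonuclease that removes the loop, lay below 0 at 213229_at, 206061_s_at and 212888_at, again without a call. The dim 216260_at was below 0 too. It passed the filter at 8.26 only through control replicate 1, so nothing is drawn from its sign. Probe set 213229_at read 65.9 and 67.1 in knockdown cells, against 86.9 and 67.0 in control cells. Control replicate 1 stood above the other 3 arrays there. Probe set 206061_s_at read 55.04 and 57.1 in knockdown, against 62.0 and 58.0 in control. Probe set 212888_at read 42.4 and 47.0 in knockdown, against 51.1 and 45.6 in control. The differences were -0.16 (95% interval -0.48 to 0.15), -0.08 (-0.33 to 0.18) and -0.08 (-0.35 to 0.18), and only at 206061_s_at were the groups apart. Control replicate 1 was above control replicate 2 at all 4 tested DICER1 probe sets, the dim 216260_at (7.22 and 7.71 in knockdown, against 11.1 and 7.51 in control) included. Without control replicate 1 the differences were -0.01 at 213229_at, -0.039 at 206061_s_at and -0.023 at 212888_at, and without control replicate 2 they were -0.32, -0.11 and -0.15 in the same order. Without knockdown replicate 1 the difference at 212888_at was -0.030. Its 2 dimmest probe sets, 216281_at and 216280_s_at, had knockdown means of 6.17 and 2.63 and control means of 3.59 and 2.16 and were not tested.

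The DICER1 partners gave a bright probe set for PRKRA and weak signals for TARBP2. PRKRA, also called PACT and known as an activator of the kinase PKR, read 151 and 160 in knockdown cells, against 128 and 142 in control cells at 209139_s_at. The knockdown arrays were both higher, with means of 155 ± 6.003 in knockdown and 135 ± 10.1 in control (SD, n = 2 each) and a difference of 0.18 (SE 0.11, 95% interval -0.08 to 0.45, adjusted p = 0.517). Its dim probe set 237107_at had the opposite order, with 3.02 and 2.96 in knockdown, against 6.52 and 9.96 in control, and was below the filter. TARBP2, which holds DICER1 and loads its products, read 29.2 and 22.8 in knockdown, against 23.6 and 24.6 in control at 203677_s_at (0.06, 95% interval -0.22 to 0.35). Its probe set 239389_at read 14.1 and 5.0 in knockdown, against 4.52 and 25.0 in control. Replicates of each group differed more there than the groups did, and the interval, -0.94 to 0.53, was the widest among the members.

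At 13 of the 19 tested member probe sets (68.4%) the gap between the 2 control replicates was larger than the difference between knockdown and control, beside 52.9% of all tested probe sets. A gap between single arrays varies more than a difference of group means, and whether the members stand apart here was not tested. The median absolute gap between the controls was 0.21 over the members and 0.14 over all tested probe sets, while that between the knockdown replicates was 0.10 over the members and 0.11 over all tested probe sets. AGO2 at 225827_at and DROSHA are examples, with knockdown gaps of 0.02 and 0.01 and control gaps of 0.34 and 0.22. At AGO4 227930_at the control gap was 0.02.

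**Figure D3:**
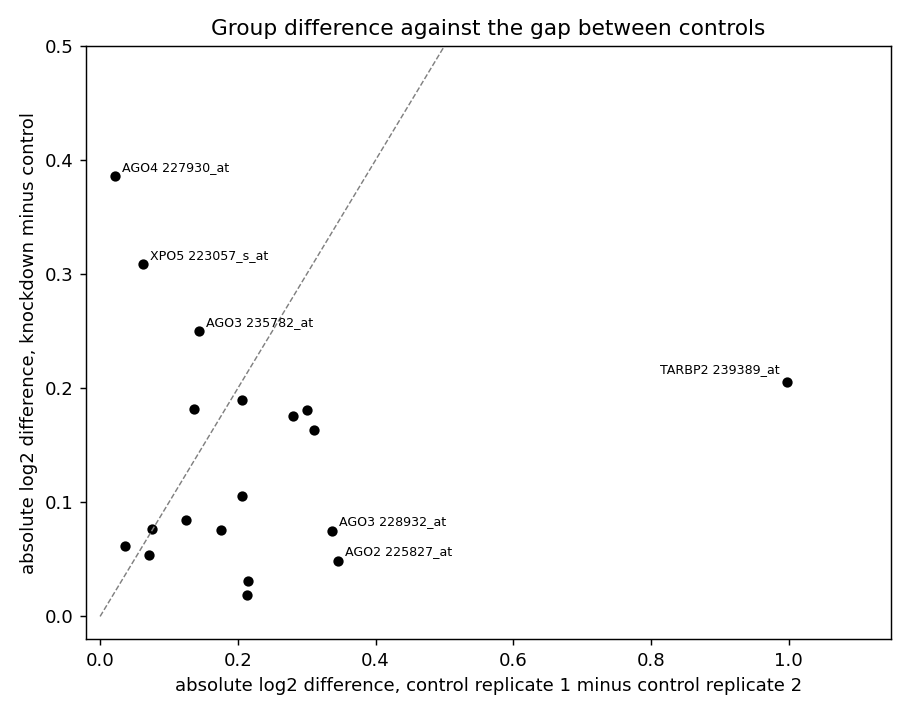
Absolute log2 difference between knockdown and control (vertical) against the absolute log2 gap between the control replicates (horizontal), 1 point per tested member probe set, with the dashed line marking equality. The 13 points to the right of the line have a control gap larger than the group difference, and AGO4 227930_at, with a difference of 0.39 and a control gap of 0.02, is the point furthest to its left.

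The genes that work beside these proteins were read from 7 further lists, taken from the same fit. No list had a probe set called in the common-prior fit. The intensity-trend fit called 7 probe sets in 3 lists, and its share over all tested probe sets was 1.29% called higher and 0.872% called lower. These counts describe the lists and are not set against chance.

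Chaperones that open Argonaute for loading, with the passenger strand nuclease subunits TSN and TSNAX, lay mostly above 0. Of 24 tested probe sets for 11 genes, 19 lay above 0 and 5 below, with a median of 0.16. Groups did not overlap at 18 of the 24 (75%), beside 46.1% of all tested probe sets and 53.2% of the 13654 brightest. Of the 18, 16 were higher and 2 lower in knockdown, beside 23.3% higher and 22.8% lower over all tested probe sets. In the intensity-trend fit 4 were called, all higher in knockdown. STIP1, the cochaperone that joins HSP70 to HSP90, read 69.3 and 74.5 in knockdown cells, against 35.5 and 41.1 in control cells at 212009_s_at (0.70, SE 0.11, limma adjusted p = 0.273, and 0.00530 with the trend). Both knockdown arrays stood clear of the controls. Its other probe set, 213330_s_at, read 131 and 115 in knockdown, against 107 and 97.0 in control (0.24).

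HSP90AB1, the constitutive cytosolic HSP90, was called higher by the intensity-trend fit at 2 of its 3 probe sets. At 214359_s_at it read 432 and 399 in knockdown, against 279 and 257 in control (0.60, adjusted p = 0.000592 with the trend). At 1557910_at it read 423 and 492 in knockdown, against 325 and 266 in control (0.61, adjusted p = 0.00247). The brightest, 200064_at, read 1114 and 1001 in knockdown, against 968 and 879 in control, which was not called (0.19, adjusted p = 0.145). Whether these probe sets also read related HSP90 transcripts was not checked here. CDC37, the HSP90 cochaperone for kinases, read 155 and 152 in knockdown, against 110 and 82.7 in control (0.61, adjusted p = 0.00829 with the trend). HSP90AA1, the inducible HSP90, lay between -0.16 and 0.16 at 4 probe sets, none of them called.

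Cofactors of the microprocessor and regulators of precursors had a median of -0.01 over 39 tested probe sets, with 19 above 0 and 20 below. Groups did not overlap at 25 of the 39 (64.1%), 13 higher and 12 lower in knockdown. The share was 46.1% of all tested probe sets and 53.2% of the 13654 brightest. The intensity-trend fit called 2, both higher in knockdown. SND1, a nuclease found in silencing complexes, read 162 and 172 in knockdown cells, against 109 and 129 in control cells (0.44, SE 0.12, limma adjusted p = 0.285, and 0.0260 with the trend). TUT7, which adds uridines to microRNA precursors, read 17.3 and 19.1 in knockdown, against 6.73 and 5.19 in control at 238800_s_at (0.64, adjusted p = 0.0469 with the trend). Both control values were below the filter intensity of 8.26. The probe set was thus tested only through its level in knockdown, which favours this direction. The brighter TUT7 probe sets did not show such a rise, with differences of -0.25 at 220933_s_at and -0.01 at 236243_at.

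Silencing effectors that Argonaute recruits, with the deadenylation and decapping factors, had a median of 0.01 over 64 tested probe sets, with 34 above 0 and 30 below and none called in either fit. The probe sets with the largest t were 235234_at of PATL1, a decapping scaffold, and 218508_at of DCP1A, a decapping cofactor. PATL1 235234_at read 20.3 and 21.9 in knockdown, against 12.2 and 11.4 in control (0.42). The brighter PATL1 probe sets 225468_at and 225466_at gave 0.22 and 0.09, and 235235_s_at, with overlapping groups, gave 0.46. DCP1A 218508_at read 71.6 and 74.5 in knockdown, against 99.5 and 90.8 in control (-0.32), and 225443_at gave -0.18. Sensors of double-stranded RNA had a median of -0.04 over 17 tested probe sets, with 7 above 0, 10 below and none called. RIGI, the sensor of viral RNA ends, gave -0.45 at 222793_at but 0.29 at 218943_s_at, so its probe sets had opposite signs. The PIWI clade, which acts with piRNAs in the germline, had 3 of 14 probe sets above the filter, none called, with PLD6 at -0.14 and PIWIL4 at -0.13.

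Transcripts that carry microRNA hairpins are the natural input of the pathway. Of 21 non-coding host transcripts listed, 10 had a single-gene probe set and 5 were tested, with a median of -0.09 over 8 probe sets and none called. MIR9-1HG gave -0.29 and MIR99AHG -0.19, the largest t in that list. MIR155HG was not read, because its probe set is annotated to MIR155 as well. Protein-coding hosts had a median of -0.05 over 33 tested probe sets, with 13 above 0 and 20 below. SMC4, a condensin subunit and host of the miR-15b and miR-16-2 hairpins, was called lower by the intensity-trend fit at 215623_x_at, with 49.3 and 42.8 in knockdown, against 98.4 and 69.5 in control (-0.67, adjusted p = 0.0143). Its brightest probe set, 201664_at, read 454 and 361 in knockdown, against 403 and 395 in control (0.02), and 201663_s_at gave -0.21, so the SMC4 probe sets did not share a sign.

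**Figure D4:**
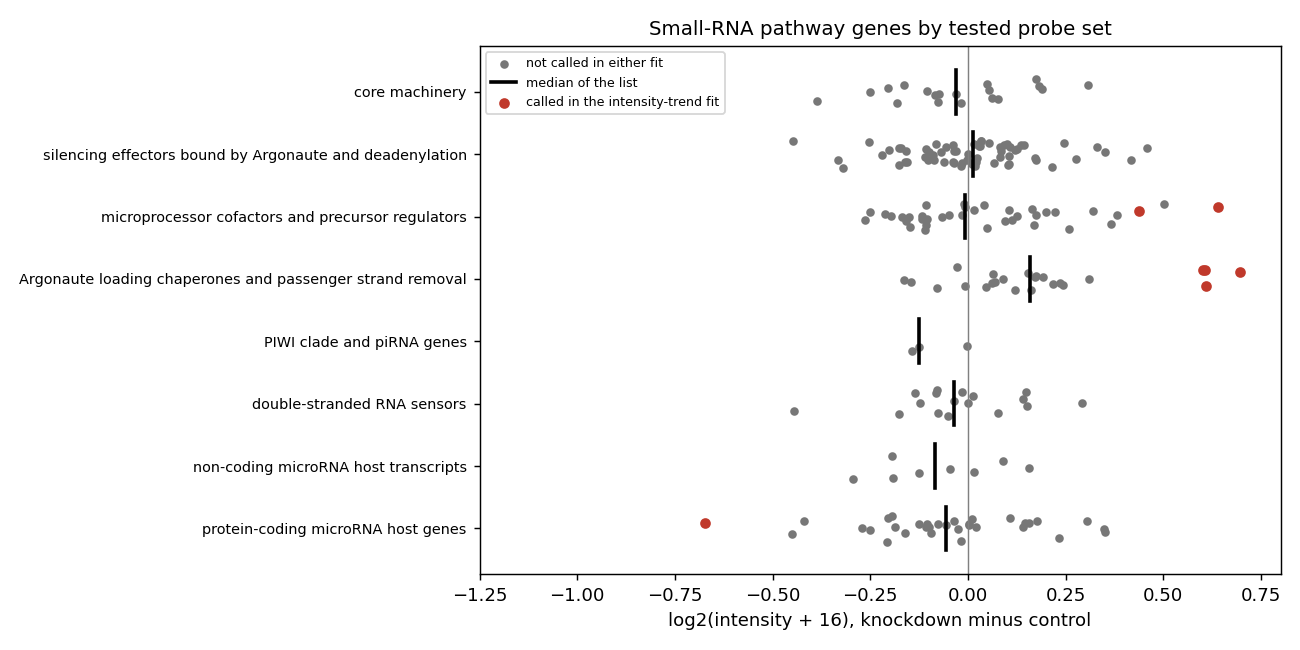
Log2 difference between knockdown and control for every tested probe set of the core machinery and of 7 surrounding lists, 1 point each, with a black bar at the list's median and red for probe sets called by the intensity-trend fit. The core machinery has its median at -0.03 and no red point, while the loading chaperones have theirs at 0.16 with 4 red points, all higher in knockdown.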

How the data were processed

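Deposited per array and probe set was a linear intensity. The labels' protocols record biotinylated cRNA from the Affymetrix 1-cycle procedure. No source used here tells how the authors summarised or scaled the probes, and the array medians (8.12 to 9.28) differ while the means hardly do.

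The scale of analysis was log2(intensity + 16), on which changes of dim probe sets appear smaller than they are. The filter kept the brighter 27307 of 54613 probe sets, those with a mean of at least 4.60 on that scale (an intensity of 8.26). Differences, knockdown minus control, were fitted with lmFit and eBayes in limma 3.58.1 (R 4.3.3), with Benjamini-Hochberg adjustment over all 27307 and a threshold of 0.05. The script was tested on simulated data. Gene names came from the platform's table (41091 probe sets with 1 gene, 1801 with several, 11721 with none), and all 27 member probe sets kept their symbol in RefSeq by gene number. The labels name no genome build.

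Named are all member probe sets, PIERCE2, CIITA, and in each list the probe sets called by either fit or else those with the 2 largest moderated t. Further probe sets of genes so named, HSP90AA1, single markers and those annotated to 2 genes were added after their values were seen. Members and lists were chosen with earlier results of these data known. Nothing says that replicates were separate cultures, so p-values measure the spread between these arrays, which may be technical.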

Additional observations from a re-analysis of the deposited data

How the results depend on the processing

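No member probe set was called under any alternative run: other variance priors, filters, normalizations, pseudocounts, ways to combine probe sets, a threshold of 0.10, the replicate block and single arrays left out. Over all probe sets 2 were called, and this count was 591 with the intensity trend (353 higher and 238 lower), 62 with a filter at the 75th percentile, 663 with a pseudocount of 64, 1 after averaging the probe sets of each gene, 0 without the filter, 0 with a pseudocount of 1, and 0 to 4 with single arrays left out. With the replicate block it was again 2 over all probe sets and 0 among the members. Same-numbered arrays deviated from their group means at a correlation of -0.01. Whether they share anything beyond the number was not tested.

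The members' median difference of -0.03 was 0.026 with median centring and 0.049 with the filter at the 75th percentile or with the brightest probe set per gene, and ran from -0.073 to 0.055 with single arrays left out. Probe sets without overlap between groups, 6 of 19, numbered 8 of 19 with quantile normalization and also with median centring. Over all tested probe sets these settings gave 46.0% and 47.6%. Without the filter the count was 10 of 27, and with the stricter one 3 of 11. With the brightest and the averaged probe sets it was 3 of 9 and 3 of 8. It was 9 to 14 with single arrays left out, where 69.0% to 76.4% of all probe sets did not overlap. Adding the probe sets annotated to 2 genes, a choice made after seeing the data, gave 0 called of 25, with 8 that did not overlap and a median of -0.05. Among further values of single member probe sets, 254 kept their sign and 11 did not. Many of the 254 could not change. The variance prior, filter, threshold, replicate block and choice of the brightest probe set leave a difference as it was. All 11 changes came with median centring or with single arrays left out. Median centring gave 0.026 for DROSHA and 0.039 for AGO1 228120_at. With single arrays left out, ranges that crossed 0 were -0.14 to 0.076 for DROSHA, -0.13 to 0.088 for AGO1 228120_at, -0.011 to 0.16 for AGO1 218287_s_at, -0.12 to 0.22 for AGO2, -0.29 to 0.14 for AGO3 228932_at, -0.048 to 0.17 for TARBP2 203677_s_at and -0.70 to 0.055 for TARBP2 239389_at. The cause of these changes of sign was not tested. AGO4 227930_at ran from -0.64 to -0.17 over all its settings, and XPO5 223057_s_at from 0.15 to 0.45. Dim signals limit TARBP2 239389_at and the 8 member probe sets below the filter.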
